A study of Mus musculus with 6 samples.

Results

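Immunoglobulin variable (V) segments are the germline gene pieces from which B cells assemble the antigen-binding ends of their antibodies. The segments described here are the rows of the gene table whose symbol begins with Ighv (heavy chain), Igkv (kappa light chain) or Iglv (lambda light chain) and that reached 1 TPM or more in at least 1 of 6 libraries. TPM is a share of all transcripts in the library, corrected for transcript length. Of 36144 rows in the table, 346 were V segments and 214 of these were members: 104 of 183 heavy, 107 of 160 kappa and 3 of 3 lambda segments. Because members were chosen by their TPM values, the number of members is a description and no finding. Of the 132 V rows left out, 102 were at 0 in all 6 libraries.

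Each developing B cell joins 1 V segment to a joining segment (with a diversity segment between them in the heavy chain), and the joined exon is spliced to a constant gene such as Ighm or Igkc. A tissue with many unrelated B cells therefore carries transcripts of many V segments, whereas the progeny of 1 B cell keep the same heavy and light V segment. Plasma cells, the antibody-secreting form, hold far more immunoglobulin mRNA per cell than other B cells, so that shares of V transcripts are not shares of cells.

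Poly-A RNA of mouse subcutaneous white fat was sequenced in 6 libraries. Titles name 3 of them WT and the other 3 Tumor, each numbered 1 to 3 as biological replicates. The labels conflict: the genotype label calls the libraries titled WT wild type and those titled Tumor full-body knockout for Msra, all 6 carry the treatment orthotopic transplant, and the series title contrasts tumour-bearing mice with controls that had no tumour. According to the design text, both genotypes received pancreatic ductal adenocarcinoma cells and the fat was taken 4 to 5 weeks after surgery. Groups are therefore called by their titles. Strain, sex and age are not given, and V segments differ between inbred mouse strains. Msra, which encodes methionine sulfoxide reductase A, stood at 51.1, 59.1 and 56.3 TPM in the libraries titled WT and at 52.9, 40.0 and 26.9 TPM in those titled Tumor (log2 difference -0.51, SE 0.26, limma adjusted p = 0.737). Its transcript was thus not lost in the libraries whose genotype label says knockout. Gene-level TPM does not show whether that transcript was intact. Library identifiers fall into 2 distant number ranges, 1 per title group, and a batch behind them cannot be told apart from the groups.

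Adipose identity was present in all 6 libraries, with 8 adipocyte markers (among them Adipoq and Plin1) summing to 29640, 34430 and 52270 TPM in WT replicates 1, 2 and 3 and to 42900, 31620 and 12210 TPM in Tumor replicates 1, 2 and 3. The sum was lowest in Tumor replicate 3, which held the most V TPM, and highest in WT replicate 3. The 6 skeletal muscle markers summed to 12.9, 2251 and 9.26 TPM against 1550, 488 and 1971 TPM. V transcripts differed between libraries more than between groups. The members summed to 2062, 3861 and 177 TPM in WT replicates 1, 2 and 3 and to 15.9, 5208 and 7041 TPM in Tumor replicates 1, 2 and 3. WT replicate 3 and Tumor replicate 1 are called the 2 poor libraries below, and the others the 4 rich libraries. The 8 B cell markers summed to 1006, 740 and 4.38 TPM against 10.4, 1720 and 2475 TPM in the same order, the 8 T cell markers to 12.1 to 26.0 TPM in the poor and 971 to 2419 TPM in the rich libraries, and 5 lymph node stroma and high endothelium markers to 42.4 to 54.4 and 1462 to 2979 TPM. All 3 lists were low in both poor libraries and high in the rich ones, but did not follow the V sums within these: WT replicate 3 had more V TPM and fewer B cell markers than Tumor replicate 1, and WT replicate 2 more V TPM and fewer B and T cell markers than WT replicate 1. Their part in the results below was not tested. Whether low V TPM came from fewer B cells or from less immunoglobulin RNA per B cell was not tested.

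On a segment of 351 nt, 1 sequenced fragment was worth 0.207 to 0.276 TPM, as the steps between low values in each library show, so that 3 fragments amounted to 0.621 to 0.828 TPM. At that length the heavy members rested on about 2695, 5288 and 396 fragments in the libraries titled WT and on about 18, 7717 and 8804 in those titled Tumor. The kappa members rested on 5340, 10419 and 447 against 39, 12897 and 17806 fragments. Statements on single segments in Tumor replicate 1 rest on a handful of fragments. The floors cover counting error only.

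All 346 V rows were found in the GENCODE M21 annotation (GRCm38). The heavy members lie on chromosome 12 between 113578504 and 116000461, 97 annotated as V genes, 6 as pseudogenes and 1, Ighv1-13, with 2 entries of the same name. The kappa members lie on chromosome 6 between 67555497 and 70704177, 94 V genes and 13 pseudogenes, 41 on the plus and 66 on the minus strand. The 3 lambda members lie on the minus strand of chromosome 16 between 19085017 and 19260859. Pseudogene members took at most 0.60% of kappa V TPM in any library, and heavy members other than plain V genes at most 2.05%. The segments resemble each other closely. The nearest other V transcript was 95.4% identical at the median for heavy and 94.3% for kappa members, over at least 250 aligned bases, and 16 members had one at 98% or more. How the authors' pipeline divided reads between such copies is not given in the sources used here, so the values of those 16 are uncertain.

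The threshold fell among segments seen through a few fragments. Just inside it were the pseudogenes Igkv9-119, with a highest value of 1.00 TPM in Tumor replicate 3, and Ighv1-83, with 1.01 TPM in the same library. Just outside it were Ighv5-21, a pseudogene with 0.958 TPM in WT replicate 2, and the V gene Ighv8-6, with 0.951 TPM in Tumor replicate 2.

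A different segment led each library at the heavy and at the kappa locus. Because the libraries are told apart by these leaders in the results that follow, their germline sequences are shown for the 5 libraries with enough fragments to rank segments. Each is the last 294 bases of the annotated transcript, all coding and within its last exon (GENCODE M21, GRCm38), written 5′ to 3′. Capitals mark the codon of the conserved second cysteine and the germline bases after it, with which the third complementarity-determining region begins. The heavy leaders were Ighv1-26 in WT replicate 1, Ighv1-82 in WT replicate 2, Ighv6-3 in WT replicate 3, Ighv1-74 in Tumor replicate 2 and Ighv1-76 in Tumor replicate 3.
Ighv1-26: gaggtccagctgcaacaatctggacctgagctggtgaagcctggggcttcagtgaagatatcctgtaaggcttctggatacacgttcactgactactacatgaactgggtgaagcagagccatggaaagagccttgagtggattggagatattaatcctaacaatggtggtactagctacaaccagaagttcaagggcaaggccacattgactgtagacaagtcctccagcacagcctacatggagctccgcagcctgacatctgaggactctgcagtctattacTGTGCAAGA
Ighv1-82: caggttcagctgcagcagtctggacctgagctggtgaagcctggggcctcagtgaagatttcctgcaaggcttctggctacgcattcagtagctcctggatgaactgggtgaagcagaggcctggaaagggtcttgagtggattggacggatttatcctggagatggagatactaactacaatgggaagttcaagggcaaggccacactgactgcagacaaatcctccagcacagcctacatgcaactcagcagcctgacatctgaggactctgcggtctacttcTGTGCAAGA
Ighv6-3: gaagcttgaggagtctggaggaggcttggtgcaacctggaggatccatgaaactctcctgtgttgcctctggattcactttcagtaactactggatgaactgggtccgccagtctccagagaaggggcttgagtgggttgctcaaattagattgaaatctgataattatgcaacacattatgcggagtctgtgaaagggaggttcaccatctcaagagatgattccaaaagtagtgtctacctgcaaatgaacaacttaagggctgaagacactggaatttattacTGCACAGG
Ighv1-74: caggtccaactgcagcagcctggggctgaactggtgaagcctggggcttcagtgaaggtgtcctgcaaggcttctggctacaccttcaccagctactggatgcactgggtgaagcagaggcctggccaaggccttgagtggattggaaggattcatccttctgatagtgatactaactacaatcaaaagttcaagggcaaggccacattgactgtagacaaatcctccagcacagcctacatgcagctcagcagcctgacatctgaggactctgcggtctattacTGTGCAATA
Ighv1-76: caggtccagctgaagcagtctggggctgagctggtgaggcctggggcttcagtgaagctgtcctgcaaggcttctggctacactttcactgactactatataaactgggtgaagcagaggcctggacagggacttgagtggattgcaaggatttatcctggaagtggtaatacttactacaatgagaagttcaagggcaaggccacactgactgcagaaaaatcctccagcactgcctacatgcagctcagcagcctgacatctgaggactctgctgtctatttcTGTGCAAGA
They lie within the heavy locus as follows: Ighv1-26 at chr12:114788372-114788665 on the minus strand, Ighv1-82 at chr12:115952538-115952831 on the minus strand, Ighv6-3 at chr12:114391712-114392005 on the minus strand, Ighv1-74 at chr12:115802648-115802941 on the minus strand, and Ighv1-76 at chr12:115847881-115848174 on the minus strand. The 4 leaders of the Ighv1 family were 83.4% to 88.0% identical to each other.

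The kappa leaders were Igkv12-41 in WT replicate 1, Igkv12-44 in WT replicate 2, Igkv1-117 in WT replicate 3, Igkv9-124 in Tumor replicate 2 and Igkv14-111 in Tumor replicate 3, printed the same way.
Igkv12-41: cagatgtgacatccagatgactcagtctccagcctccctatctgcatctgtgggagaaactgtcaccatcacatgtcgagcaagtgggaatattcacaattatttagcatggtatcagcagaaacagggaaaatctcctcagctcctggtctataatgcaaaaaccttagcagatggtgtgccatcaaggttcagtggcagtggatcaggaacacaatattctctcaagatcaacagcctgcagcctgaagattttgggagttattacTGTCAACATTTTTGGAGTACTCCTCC
Igkv12-44: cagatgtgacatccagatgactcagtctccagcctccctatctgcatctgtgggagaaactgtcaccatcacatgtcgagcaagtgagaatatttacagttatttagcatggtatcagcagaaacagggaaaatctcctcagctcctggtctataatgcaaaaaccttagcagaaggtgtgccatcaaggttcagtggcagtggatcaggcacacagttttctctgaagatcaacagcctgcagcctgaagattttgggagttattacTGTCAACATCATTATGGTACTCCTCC
Igkv1-117: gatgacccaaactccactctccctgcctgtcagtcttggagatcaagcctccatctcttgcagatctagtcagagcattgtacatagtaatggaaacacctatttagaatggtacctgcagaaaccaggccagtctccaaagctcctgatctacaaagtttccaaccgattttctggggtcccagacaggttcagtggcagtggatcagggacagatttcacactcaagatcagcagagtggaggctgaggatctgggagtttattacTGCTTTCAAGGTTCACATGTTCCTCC
Igkv9-124: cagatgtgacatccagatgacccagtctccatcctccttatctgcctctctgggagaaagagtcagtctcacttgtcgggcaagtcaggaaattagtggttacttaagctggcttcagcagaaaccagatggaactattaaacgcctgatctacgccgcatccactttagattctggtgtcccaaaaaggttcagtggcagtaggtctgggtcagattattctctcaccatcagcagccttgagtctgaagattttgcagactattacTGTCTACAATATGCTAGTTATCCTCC
Igkv14-111: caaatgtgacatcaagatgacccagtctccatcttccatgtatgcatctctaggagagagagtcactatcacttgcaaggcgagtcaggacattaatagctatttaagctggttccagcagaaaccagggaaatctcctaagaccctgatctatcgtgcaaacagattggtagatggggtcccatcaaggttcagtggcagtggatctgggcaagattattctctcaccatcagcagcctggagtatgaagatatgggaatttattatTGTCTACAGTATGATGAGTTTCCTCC
They lie on both strands: Igkv12-41 at chr6:69858420-69858713 on the minus strand, Igkv12-44 at chr6:69814631-69814924 on the minus strand, Igkv1-117 at chr6:68121534-68121827 on the plus strand, Igkv9-124 at chr6:67942074-67942367 on the minus strand, and Igkv14-111 at chr6:68256576-68256869 on the plus strand. Igkv12-41 and Igkv12-44 were 95.7% identical, and the other kappa leaders for which an alignment was found were 72.2% to 79.5% identical to each other. The nearest other V transcript of Igkv1-117 was Igkv1-110, the kappa leader of Tumor replicate 1, at 97.5%.

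Heavy V use was broad in WT replicate 1 and Tumor replicate 2 and was dominated by 1 segment in WT replicate 3 and Tumor replicate 3. Evenness is the Shannon entropy of the members' TPM shares divided by the log of the number of members, so that 1 means equal use and 0 a single segment. Heavy evenness was 0.857, 0.725 and 0.305 in the libraries titled WT and 0.494, 0.840 and 0.631 in those titled Tumor. The effective number of segments, the count of equally used segments with the same entropy, was 53.5, 28.9 and 4.1 against 9.9, 49.4 and 18.8. Both poor libraries were below all 4 rich libraries, and the groups overlapped. Of the 104 heavy members, 83, 76 and 8 reached 1 TPM in WT replicates 1, 2 and 3 and 1, 97 and 93 in Tumor replicates 1, 2 and 3. With 18 fragments, the highest evenness that Tumor replicate 1 could reach was 0.622, whereas the 396 fragments of WT replicate 3 set no such bound.

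In WT replicate 3, Ighv6-3 alone stood at 55.5 TPM, 67.7% of all heavy V TPM in that library and about 268 fragments. The segment with the next highest value, Ighv13-2, stood at 5.73 TPM, so that the leader was 9.68 times as high. Ighv6-3 was at 26.3 and 24.9 TPM in WT replicates 1 and 2, at 0 in Tumor replicate 1 and at 37.2 and 16.5 TPM in Tumor replicates 2 and 3. WT replicate 3 thus had the highest Ighv6-3 level of the 6 libraries, on the TPM scale, although its summed heavy V level was 81.9 TPM, second lowest of 6. The share of Ighv6-3 was 0.743% to 4.01% in the 4 rich libraries.

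In Tumor replicate 3, Ighv1-76 stood at 1026 TPM, 46.1% of the heavy V TPM and 13.67 times the next segment, Ighv3-6, at 75.1 TPM. The same segment stood at 11.3, 10.3 and 0.288 TPM in the libraries titled WT and at 0 and 10.6 TPM in Tumor replicates 1 and 2. Its share in the other 3 rich libraries was thus within 0.579% to 1.72%. When the leading segment of each library was left out, the evenness of Tumor replicate 3 was 0.897, the highest of the 6, against 0.631 with it. The remaining segments of that library were used about as evenly as those of WT replicate 1 (0.890 without its leader) and Tumor replicate 2 (0.855). Without their leaders, WT replicate 2 (0.767), WT replicate 3 (0.527) and Tumor replicate 1 (0.490) were still below these 3.

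The other rich libraries had smaller leaders. Ighv1-82 led WT replicate 2 with 237 TPM (19.0%), followed by Ighv1-80 at 130 TPM, and 6 segments were needed to reach 50% of its heavy V TPM. Ighv1-26 led WT replicate 1 with 83.3 TPM (12.7%), followed by Ighv6-3 at 26.3 TPM. In Tumor replicate 2, Ighv1-74 at 174 TPM (9.55%) and Ighv1-36 at 171 TPM were nearly level, while Ighv1-36 stood at 0 to 5.83 TPM in the other 5 libraries and Ighv1-74 at 0 to 15.5 TPM. Ighv1-26 was among the high segments in every rich library, at 83.3, 54.2, 85.2 and 71.0 TPM in WT replicates 1 and 2 and Tumor replicates 2 and 3. In Tumor replicate 1 the leader Ighv1-84 stood at 1.12 TPM (22.6%), about 4 fragments, with Ighv1-26 next at 0.838 TPM.

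**Figure D1:**
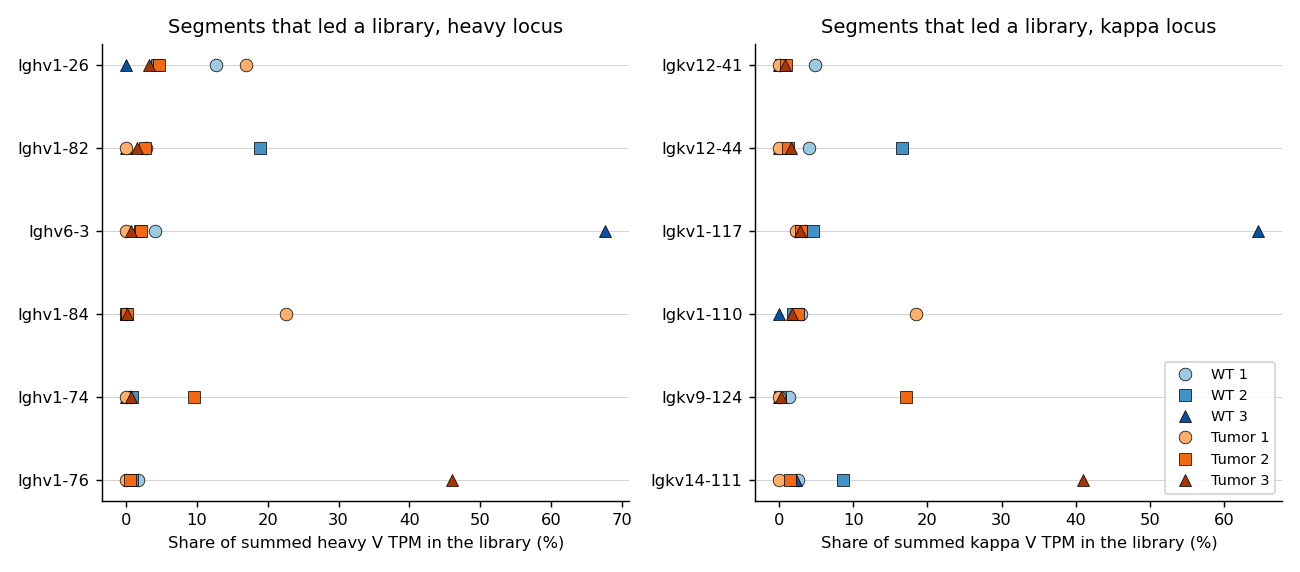
Share of each locus' summed V TPM (x axis, percent) taken in every library by the segments that led at least 1 library (y axis), heavy on the left and kappa on the right; blue points are libraries titled WT, orange points libraries titled Tumor. Ighv6-3 and Igkv1-117 stand alone in WT replicate 3 at 67.7% and 64.7%, and Ighv1-76 and Igkv14-111 in Tumor replicate 3 at 46.1% and 41.0%.

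Kappa V use followed the heavy order at the top. Kappa evenness was 0.868, 0.757 and 0.324 in the libraries titled WT and 0.553, 0.801 and 0.660 in those titled Tumor, with effective numbers of 57.7, 34.4 and 4.5 against 13.3, 42.2 and 21.9. The order of the 6 libraries by evenness was the same for heavy and kappa segments, highest in WT replicate 1 and lowest in WT replicate 3. The loci are on separate chromosomes but were measured in the same libraries. Of the 107 kappa members, 85, 84 and 11 reached 1 TPM in the libraries titled WT and 2, 95 and 104 in those titled Tumor. The bound set by 39 fragments on the evenness of Tumor replicate 1 was 0.784.

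The libraries with a dominant heavy segment also had a dominant kappa segment of like share. In WT replicate 3, Igkv1-117 stood at 59.8 TPM, 64.7% of kappa V TPM and 9.74 times the next segment, Igkv10-96, at 6.14 TPM. The kappa leader was 1.08 times the level of the heavy leader Ighv6-3 in that library. In Tumor replicate 3, Igkv14-111 stood at 1846 TPM, 41.0% of kappa V TPM and 10.64 times Igkv10-96 at 173 TPM, and 1.80 times the heavy leader Ighv1-76. Bulk libraries do not join heavy to light chains, so whether the leading pairs came from the same cells was not tested. Without its leading segment, kappa evenness in Tumor replicate 3 was 0.875, the highest of the 6, and that of WT replicate 3 was 0.525.

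Igkv14-111 was also the runner-up of WT replicate 2, with 213 TPM (8.67%), and stood at 32.3, 2.08, 0 and 43.4 TPM in WT replicates 1 and 3 and Tumor replicates 1 and 2. WT replicate 2 was led by Igkv12-44 at 408 TPM (16.6%), which stood at 0 to 74.0 TPM in the other 5 libraries. Tumor replicate 2 was led by Igkv9-124 at 521 TPM (17.1%), which was at 17.9 TPM in WT replicate 1, at 10.5 TPM in Tumor replicate 3 and at 0 to 3.86 TPM in the other 3 libraries. Igkv9-124 was thus high in 1 library, whereas Igkv12-44 also stood at 51.6 TPM (3.98%) in WT replicate 1. In WT replicate 1 no kappa segment stood out, with Igkv12-41 at 63.4 TPM (4.88%) and Igkv6-23 at 59.1 TPM. In Tumor replicate 1 Igkv1-110 led with 1.96 TPM (18.4%), about 7 fragments, followed by Igkv16-104 at 1.71 TPM.

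Some kappa segments kept a steady share. Igkv10-96 took 2.79% to 4.20% and Igkv1-117 2.86% to 4.59% of kappa V TPM in the 4 rich libraries, Igkv1-110 1.79% to 2.88%. Igkv1-117, which dominated WT replicate 3, thus ranked 3rd to 7th of 107 in each rich library, above the 0.935% of equal use. Over the 89 kappa members above 0 in all 4 rich libraries, the highest share was 3.28 times the lowest at the median, below 2 times for 19 and above 10 times for 8 of them. For the 84 such heavy members the median was 3.98 times, with 15 below 2 times and 12 above 10 times. Among heavy segments at 1% or more in each rich library, the steadiest were Ighv1-81 (1.22% to 2.35%) and Ighv9-3 (1.93% to 3.83%), and less used segments such as Ighv1-55 (0.731% to 1.04%) were steadier. These folds are descriptions, as only members above 0 in all 4 libraries could enter.

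**Figure D2:**
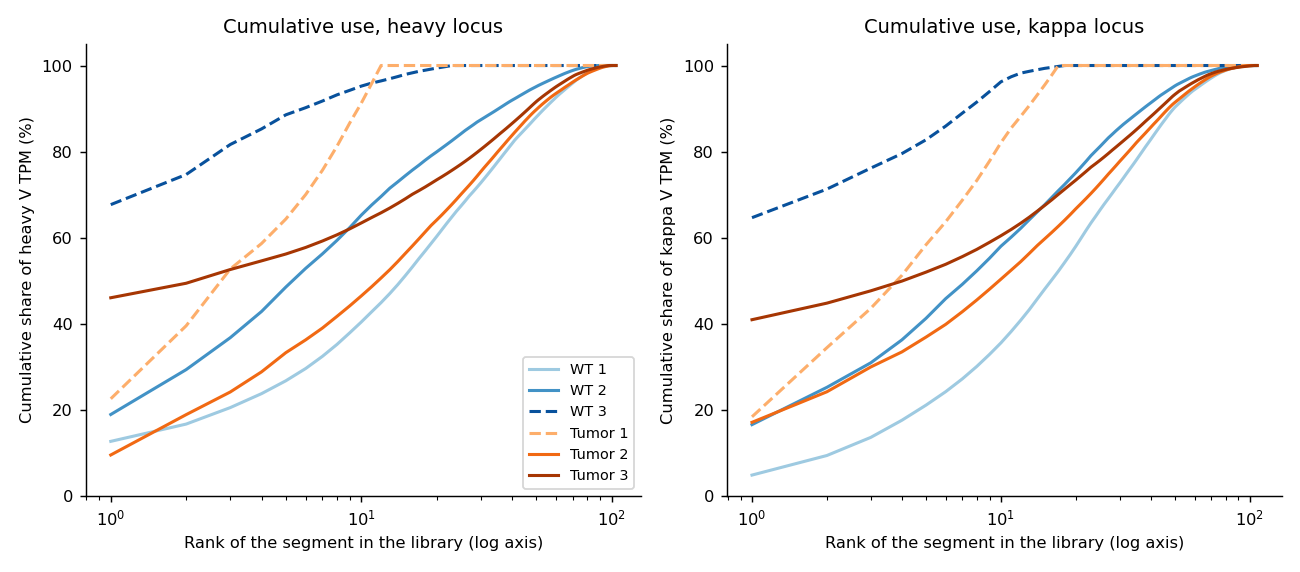
Cumulative share of V TPM (y axis, percent) against the rank of the segment within its library (x axis, log scale), heavy on the left and kappa on the right; dashed lines are the 2 poor libraries. The curves of WT replicate 3 begin at 67.7% and 64.7% and those of Tumor replicate 3 at 46.1% and 41.0%, whereas WT replicate 1 begins at 12.7% and 4.88%.

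No member reached 1 TPM in all 6 libraries. In all 4 rich libraries, 69 heavy, 76 kappa and 3 lambda members reached 1 TPM. At this depth 3 heavy segments (Ighv1-72, Ighv5-17 and Ighv10-1) and 4 kappa segments (Igkv1-117, Igkv1-135, Igkv6-15 and Igkv14-126) had a value above 0 in every library, some of them through a single fragment. Ighv1-72 is 99.2% identical to Ighv1-62-3 and its level is uncertain. The 7 were singled out after their values were seen.

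By V TPM, lambda segments made up a small part of light chain V transcripts in every library. The lambda share of kappa and lambda V TPM was 7.75%, 5.89% and 2.34% in the libraries titled WT and 2.21%, 10.1% and 6.42% in those titled Tumor. In the 4 rich libraries the lambda V sum was only 0.202 to 0.364 times the summed lambda constant genes, whereas kappa V was 0.550 to 0.839 times Igkc. Lambda constant genes summed to 536 to 1223 TPM there, beside 1696 to 5771 TPM of Igkc. A lambda share taken from constant genes would thus be higher in these 4 libraries. The cause was not tested. Iglv1 led in the 4 rich libraries, with 69.4 and 87.5 TPM in WT replicates 1 and 2 and 197 and 203 TPM in Tumor replicates 2 and 3, and took 56.8% to 65.6% of lambda V TPM. Iglv2 followed with 20.7, 47.4, 89.1 and 35.2 TPM, and Iglv3 with 19.0, 19.1, 57.9 and 71.0 TPM, in the same order. The order of these 2 differed between libraries: Iglv3 was above Iglv2 in Tumor replicate 3 and below it in the other 3. Iglv1 and Iglv2 are 97.0% identical. In the poor libraries the whole lambda signal was 2.22 TPM of Iglv1 in WT replicate 3, about 11 fragments, and 0.241 TPM of Iglv3 in Tumor replicate 1, about 1 fragment.

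V families, groups of segments with similar sequence that share the first number of the name, were summed next. The Ighv1 family, 53 of the 104 heavy members (51.0%), took 56.5%, 72.4% and 16.6% of heavy V TPM in the libraries titled WT and 58.5%, 64.6% and 76.6% in those titled Tumor. WT replicate 3 was the 1 library in which the family took less than its share of members, and there the Ighv6 family took 67.7%, all of it Ighv6-3. Other heavy families with at least 3 members (Ighv2, Ighv3, Ighv5, Ighv7, Ighv8, Ighv9 and Ighv14) took 0.42% to 5.90% each in the 4 rich libraries.

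The largest kappa family, Igkv4 with 31 members (29.0%), took less than its share of members in every library, with 16.5%, 20.3% and 5.85% against 4.57%, 18.2% and 7.50%. The Igkv1 family, 8 members, took 65.0% in WT replicate 3 and 7.25% to 10.04% in the rich libraries. Igkv14 took 42.0% in Tumor replicate 3, Igkv12 23.7% in WT replicate 2 and Igkv9 18.5% in Tumor replicate 2, in each case the family of that library's leader. Igkv6 took 7.21% to 14.8% and Igkv8 4.00% to 7.03% in the rich libraries and did not hold a leader.

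Use was spread over the whole length of both loci in the rich libraries. The members of each locus were put into 3 bins of nearly equal number by distance. The 34 farthest heavy members, 1638 to 2570 kb away, took 30.5%, 60.8% and 6.2% of heavy V TPM in the libraries titled WT and 31.4%, 36.3% and 65.3% in those titled Tumor. The 35 nearest, 149 to 824 kb away, took 23.4%, 16.5% and 4.1% against 24.5%, 20.8% and 14.4%, less than their 33.7% of members in every library. The farthest heavy bin was highest in WT replicate 2 and Tumor replicate 3, where its members Ighv1-82 and Ighv1-76 led with 19.0% and 46.1%. Most of its 60.8% in WT replicate 2 thus came from other members. Tumor replicate 2 was also led from that bin, by Ighv1-74 with 9.55%, and the bin held 36.3% there. The middle bin held 89.7% in WT replicate 3, where Ighv6-3 led.

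In the kappa locus the 36 nearest members, 18 to 946 kb from the joining segments, took 42.3%, 39.3% and 9.7% against 49.4%, 30.1% and 24.2%, and the 35 farthest, 1887 to 3166 kb away, 37.6%, 37.7% and 82.9% against 43.5%, 49.0% and 65.0%. The middle 36 took 7.0% to 22.9%, less than their 33.6% of members in every library. Kappa segments on the minus strand, opposite to the joining segments, join by inversion, whereas those on the plus strand join by deletion of the DNA between. The 41 on the plus strand (38.3% of members) took 34.5% and 38.8% in WT replicates 1 and 2, 30.8% in Tumor replicate 2, and 79.4%, 67.8% and 64.0% in WT replicate 3 and Tumor replicates 1 and 3. The leaders of WT replicate 3, Tumor replicate 1 and Tumor replicate 3, which were Igkv1-117, Igkv1-110 and Igkv14-111, are on that strand.

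**Figure D3:**
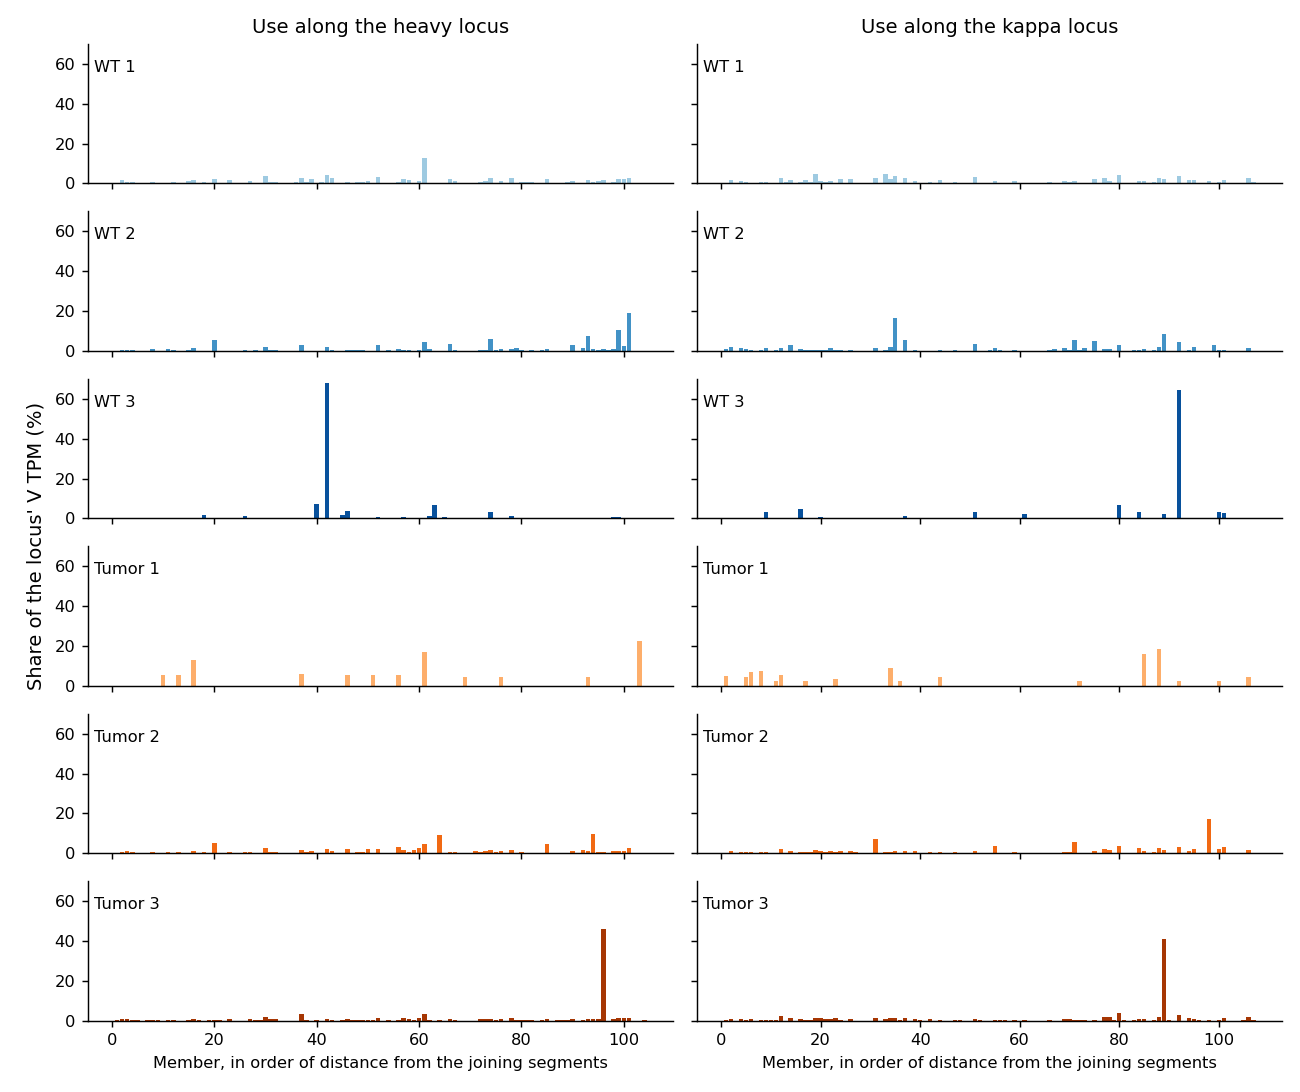
Share of the locus' V TPM (y axis, percent) of every member in order of distance from the joining segments (x axis, 1 is nearest), heavy on the left and kappa on the right, 1 row per library. Tall single bars stand in WT replicate 3 and Tumor replicate 3, at different segments, while the highest bars of the other rich libraries are 12.7%, 19.0% and 9.55% for heavy and 4.88%, 16.6% and 17.1% for kappa segments.

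Any 2 rich libraries shared a large part of their use, more so once the leaders were set aside. The overlap of use, the sum over segments of the lower of the 2 shares, was 41.0% to 63.6% over the 4 rich pairs from different groups and 47.9% to 54.7% over the 2 from the same group for heavy segments, and 51.3% to 66.1% and 54.9% to 61.1% for kappa. Without the leader of each library it was 56.2% to 80.1% over all 6 rich pairs for heavy and 61.7% to 81.2% for kappa. WT replicate 1 and Tumor replicate 3 shared 52.3% of heavy and 58.4% of kappa use, and 80.1% and 81.2% without the leader of each library, the highest values of any pair. Pairs with a poor library shared 4.0% to 22.8% for heavy and 5.4% to 22.4% for kappa. The pairs from the same group thus lay within the range of the pairs from different groups, and no test was made over so few pairs.

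Between the groups, neither evenness nor amount differed beyond the spread of the libraries. Heavy evenness was 0.629 ± 0.288 in the libraries titled WT and 0.655 ± 0.174 in those titled Tumor (SD, n = 3 each; two-sided exact permutation p = 1.0). Kappa evenness was 0.650 ± 0.287 and 0.672 ± 0.124 (exact permutation p = 0.9), and the lambda share 5.33% ± 2.75 and 6.26% ± 3.97 (exact permutation p = 0.8). With 3 against 3 libraries this test cannot go below 0.1. Without the 2 poor libraries the differences in evenness turned to -0.055 for heavy and -0.082 for kappa segments, with p = 0.667 each in the same exact test, which then cannot go below 0.333.

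The summed heavy V TPM was 655, 1248 and 81.9 in the libraries titled WT and 4.94, 1821 and 2227 in those titled Tumor, and the summed kappa V TPM 1298, 2459 and 92.5 against 10.7, 3044 and 4505. On the log2(sum + 1) scale, the means were 8.67 ± 2.04 and 8.18 ± 4.86 for heavy, 9.39 ± 2.50 and 9.09 ± 4.81 for kappa and 5.25 ± 3.09 and 5.67 ± 4.64 for lambda (SD, n = 3 each; exact permutation p = 1.0, 1.0 and 0.8). The libraries titled Tumor hold both the lowest and the highest sums. Without the 2 poor libraries, both libraries titled Tumor were above both titled WT, by 1.16 on the log2 scale for heavy and 1.05 for kappa (exact permutation p = 0.333, the smallest it can be).

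No V segment was called between the groups. The limma fit on log2(TPM + 1) covered 14144 genes, of which 0 had an adjusted p below 0.05 (0% called in the whole table; smallest adjusted p 0.206), and 771 had an unadjusted p below 0.05. Of the members, 178 passed the filter of 1 TPM in at least 3 libraries (86 heavy, 89 kappa and 3 lambda). None of these 178 was called by limma, and 1 had an unadjusted p below 0.05. Their log2 differences ran from -1.97 to 2.67, with 153 above 0 and 25 below and a median of 0.62, beside a median of 0.23 over all genes tested. With median-ratio factors these medians were 0.45 and 0.03. The median SE was 1.35 for members and 0.30 for all genes. The sign of the member median rested on single libraries: leaving out WT replicate 3 gave -0.23, leaving out Tumor replicate 3 gave -0.04, and leaving out Tumor replicate 1 gave 1.85. Without both poor libraries, which were set apart by their V TPM, the quantity tested here, limma called 0 members and the median was 0.96 (smallest adjusted p 0.368). In that fit 80 of 178 members (44.9%) and 1231 of all 14144 genes (8.70%) had an unadjusted p below 0.05.

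Ighv1-84 was the member with the smallest p. It stood at 0.298, 0.251 and 0 TPM in the libraries titled WT and at 1.12, 1.75 and 1.73 TPM in those titled Tumor, or about 1, 1 and 0 against 4, 7 and 7 fragments. Mean levels were 0.183 ± 0.160 TPM in the libraries titled WT and 1.53 ± 0.360 TPM in those titled Tumor (SD, n = 3). Its log2 difference of 1.10 did not pass the test (SE 0.26, limma adjusted p = 0.737). It passed the filter through these 3 libraries alone, at values of 1 TPM or more there and below 1 TPM in those titled WT, so that its groups could not overlap and nothing is read from that or from its p. It was the 1 member of those tested whose libraries titled Tumor were all above those titled WT, and 0 members lay all below, whereas 11.8% of all genes tested lay all above and 3.24% all below. Its nearest other V transcript, Ighv1-75, is 96.3% identical.

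The other segments with the smallest p in each direction had differences within the spread of the libraries. Igkv10-95 stood at 1.53, 0 and 0 TPM against 0, 4.13 and 17.4 TPM (log2 difference 1.74, SE 1.08, limma adjusted p = 0.737). Ighv6-3, whose values are given above, differed by -1.97 (SE 1.34, limma adjusted p = 0.737), and by -0.04 without the 2 poor libraries. Igkv1-117 stood at 45.6, 113 and 59.8 TPM against 0.242, 89.7 and 129 TPM (log2 difference -1.49, SE 1.79, limma adjusted p = 0.813). Without Tumor replicate 1 the difference of Igkv1-117 was 0.66, the opposite sign.

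Constant genes, onto which the rearranged V exon is spliced, were compared with the heavy and kappa V sums. The lambda ratio is given above. The kappa V sum was 0.550 to 0.839 times Igkc in all 6 libraries, with Igkc at 1696, 4470 and 120 TPM in the libraries titled WT and 14.1, 3629 and 5771 TPM in those titled Tumor. Kappa V and constant transcripts thus kept a similar ratio over a wide range, the poorest library included. The heavy V sum was 0.507, 0.512 and 0.415 times the summed heavy constant genes in the libraries titled WT and 0.710 and 0.578 times in Tumor replicates 2 and 3, but 0.025 times in Tumor replicate 1. That library held 192 TPM of Ighm, the constant gene of IgM, beside 4.94 TPM of heavy V and 14.1 TPM of Igkc. WT replicate 3 held less Ighm, 132 TPM, beside 81.9 TPM of heavy V and 120 TPM of Igkc. Against the heavy constant genes other than Ighm, the heavy V sum of Tumor replicate 1 was 1.09 times (4.55 TPM of those genes), and that of the other libraries 0.865 to 1.62 times. Heavy V transcripts were 0.026 times Ighm in Tumor replicate 1 and 0.619 to 1.41 times Ighm in the other 5 libraries. Tumor replicate 1 thus stood apart in this ratio and not in that of kappa V to Igkc. Ighm was high beside Ighd in both poor libraries. It stood at 132 TPM with Ighd at 1.88 TPM in WT replicate 3, and at 192 with 2.72 TPM in Tumor replicate 1. The rich libraries held 730 to 2473 TPM of Ighm and 193 to 803 TPM of Ighd. In WT replicate 3, Ighv6-3 made up 55.5 of the 81.9 TPM of heavy V. The cause of these differences was not tested.

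**Figure D4:**
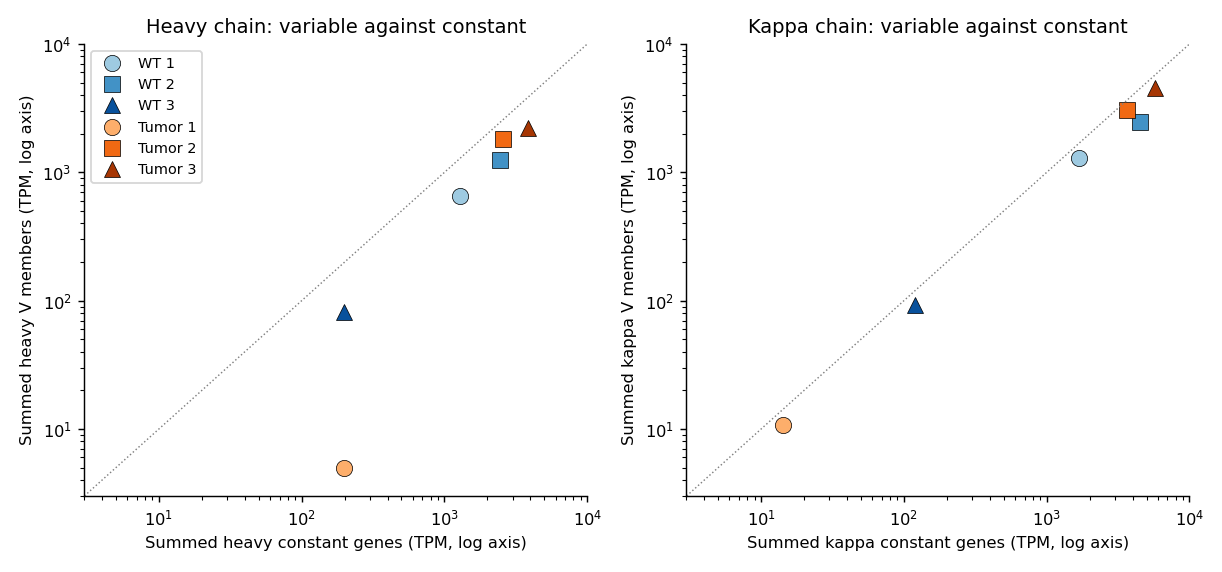
Summed V members (y axis, TPM, log scale) against summed constant genes (x axis, TPM, log scale) of the same chain, 1 point per library, heavy on the left and kappa on the right; the dotted line marks equal sums. Kappa libraries run parallel to the line, whereas on the heavy side Tumor replicate 1 lies far below it, at 4.94 TPM of V beside 197 TPM of constant genes.

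The isotypes differed between libraries. Ighm was the highest heavy constant gene in all 6 libraries. The switched constant genes (Ighg1, Ighg2b, Ighg2c, Ighg3, Igha and Ighe) made up 20.4%, 51.3% and 32.0% of heavy constant TPM in the libraries titled WT and 0.9%, 27.7% and 14.9% in those titled Tumor. In WT replicate 2, with the largest switched share, Ighg2c stood at 507 TPM and Ighg1 at 416 TPM. In WT replicate 3, dominated by Ighv6-3 and Igkv1-117, Ighm stood at 132 TPM and Ighd at 1.88 TPM. Ighg2b stood there at 48.8 TPM, Igha at 12.9 TPM, Ighg1 at 1.56 TPM and Ighg2c at 0. In Tumor replicate 3, dominated by Ighv1-76 and Igkv14-111, Ighm stood at 2473 TPM and Ighd at 803 TPM. Ighg2c stood there at 323 TPM, Ighg2b at 189 TPM, Ighg1 at 31.1 TPM and Igha at 3.71 TPM. Which constant genes the leading segments were spliced to was not tested. Of 13 constant genes, 12 were tested and 0 called by limma (log2 difference above 0 for 7 and below 0 for 5, median 0.37 beside 0.23 for all genes).

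For the other genes of antibody formation, counts above or below 0 are of log2 differences, Tumor minus WT. Of 14 joining segment rows, 12 were tested and 0 called, all 12 above 0 (median 0.47), and Iglj2 and Iglj4 were at 0 throughout. Joining segments of the heavy locus summed to 495, 889 and 30.4 TPM against 48.2, 799 and 1357 TPM. On the TPM scale, Tumor replicate 1 held more heavy joining than heavy V signal (48.2 beside 4.94 TPM), with Ighj3 at 29.3 TPM. TPM is corrected for length, and the worth of 1 fragment was not worked out for joining segments. Whether that library also held more joining than V fragments was therefore not tested. Of 12 recombination and surrogate light chain genes, 9 were tested and 0 called (5 above 0, 4 below). Igll1, a surrogate light chain piece of precursor B cells, stood at 1.77, 9.82 and 0 against 0, 4.59 and 0 TPM, and Vpreb1, its partner, at 1.65, 8.72 and 0.656 against 1.67, 4.72 and 0.458 TPM. Both were highest in WT replicate 2 and next in Tumor replicate 2, unlike the V sums, which were highest in Tumor replicate 3. Rag1, which cuts the segments for joining, stood at 0.399, 2.01 and 0 against 0, 0.950 and 0 TPM.

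Of 8 genes of class switching and the germinal centre, 8 were tested and 0 called (6 above 0, 2 below, median 0.16). The 3 octamer factors that act on V promoters, among them Pou2f2 and the co-activator Pou2af1, were all above 0 and not called (median 0.36), with Pou2af1 at 60.1, 55.4 and 0.325 against 0.15, 71.0 and 110 TPM. Of 8 plasma cell genes, 8 were tested and 0 called (8 above 0, median 0.46). Jchain, which joins IgM and IgA into polymers, stood at 31.4, 187 and 3.47 against 0.511, 122 and 229 TPM. Jchain was lowest in Tumor replicate 1, but the list did not follow it: Xbp1, a transcription factor of secretory cells, and Sdc1, a surface proteoglycan, were highest there, at 252 and 21.8 TPM.

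T cell receptor V segments, which are assembled by the same recombinase in T cells, showed how even V use was in another lymphocyte of the same libraries. By the same threshold, 99 alpha and 22 beta segments were taken. In the 4 rich libraries the evenness of 99 alpha segments (Trav) was 0.919 to 0.949 and that of 22 beta segments (Trbv) 0.933 to 0.940, in a range narrower than that of heavy (0.631 to 0.857) or kappa segments (0.660 to 0.868). The highest Trav segment took 3.1% to 4.2% and the highest Trbv segment 9.4% to 12.4% of its family. Heavy evenness was below Trbv evenness in 6 of 6 libraries, by 0.188 on average, and kappa evenness likewise, by 0.170 (two-sided exact sign-flip permutation p = 0.0312 each, the smallest 6 libraries allow, and 0.0624 adjusted over 4 comparisons). Neither passed 0.05 after adjustment. In Tumor replicate 1 the heavy sign was fixed by depth, since its heavy evenness could not exceed 0.622 and its Trbv evenness was 0.623, so the 6 of 6 does not stand as a finding for heavy segments. Against Trav, heavy and kappa evenness were lower in 4 of 6 libraries each (exact sign-flip permutation p = 0.2188 and 0.2812, adjusted 0.2812 both). In the 4 rich libraries all 4 differences were in that direction in 4 of 4 libraries, by 0.162 to 0.174 on average (exact permutation p = 0.125, the smallest possible). In the poor libraries Trav summed to 1.44 to 2.82 TPM and Trbv to 1.77 to 2.81 TPM, a few fragments. This comparison was chosen after values were seen, and families of different size and sequence likeness need not have the same evenness. Several pairs of Trav rows, such as Trav14d-1 and Trav14n-1, had the same value as each other in every library. Each row of such a pair entered as its own segment, which bears on Trav evenness and on the highest Trav share. The size of that effect was not tested.

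**Figure D5:**
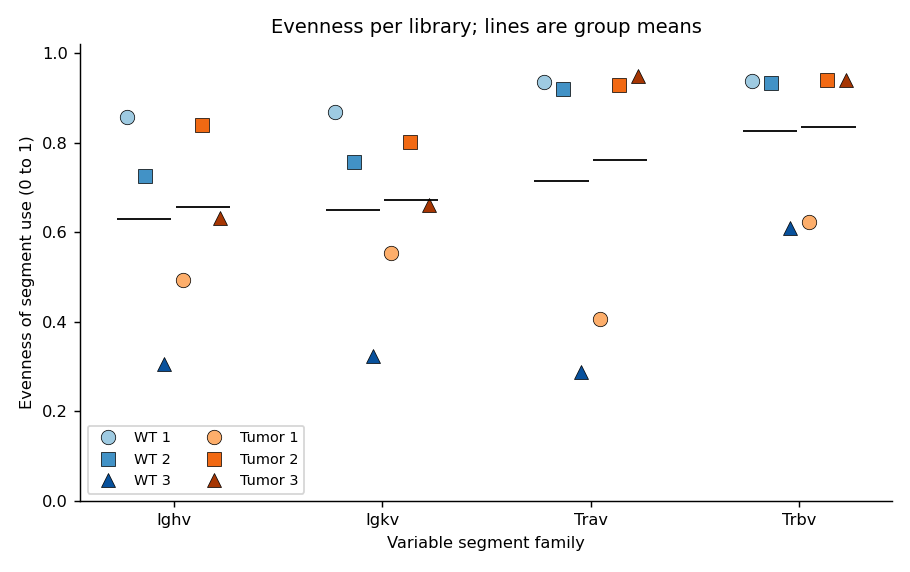
Evenness of segment use (y axis, 0 to 1) in each library for heavy (Ighv), kappa (Igkv) and T cell receptor alpha (Trav) and beta (Trbv) segments; short lines are the means of the 3 libraries of a title group. The rich libraries lie within 0.919 to 0.949 for the T cell receptor and spread over 0.631 to 0.868 for the immunoglobulin families.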

How the data were processed

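Poly-A RNA was sequenced from 6 libraries of mouse subcutaneous white adipose tissue. RNA had an integrity number above 7, and libraries were made with TruSeq chemistry, per the labels' protocols. GRCm38.p6 and DESeq2 are named in the submitters' processing notes, with no version or role for DESeq2. Aligner, quantifier and the annotation used for counting were not given in the sources used here. As the processed file, the authors deposited 1 table, named as raw counts, whose values are TPM, as every column has the same sum and values are not whole. Total reads per library are therefore unknown. For single-transcript genes over 1500 nt, 81.5% to 85.8% of low values were within 0.15 of whole multiples of 1 step per library after 165 nt were taken off the length, which gave the worth of 1 fragment.

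Members, lists, groupings and tests were chosen with earlier results of these data known. Differences were tested with limma 3.58.1 (R 4.3.3) on log2(TPM + 1), with a trend and robust moderation, over the 14144 genes with 1 TPM in at least 3 libraries, with Benjamini-Hochberg adjustment and a threshold of 0.05. The scale understates changes of low genes. Single values were compared by two-sided exact permutation tests written in Python 3.11.15 with NumPy 2.4.6. The fit was tested on simulated data in which every gene had the same, low spread. That test does not show how the fit performs for V segments, whose median SE was 1.35 beside 0.30 for all genes. Segment identity was measured with blastn 2.17.0 on GENCODE M21 transcripts, and germline sequences were read from those transcripts.

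Named segments were the 6 with the highest mean share per locus, the leader of each library, all lambda members, the 2 V rows on each side of the threshold, families of at least 3 members, and the 2 tested members per direction with the smallest p; other names were chosen after values were seen. The heavy segments with the highest mean share were Ighv6-3, Ighv1-76, Ighv1-26, Ighv1-82, Ighv1-84 and Ighv5-17 (12.7% to 3.03%), the kappa segments Igkv1-117, Igkv14-111, Igkv1-110, Igkv12-44, Igkv10-96 and Igkv16-104 (13.5% to 3.36%). Without Tumor replicate 1, which rests on few fragments, the means of Ighv1-84, Ighv5-17, Igkv1-110 and Igkv16-104 were 0.048%, 0.999%, 1.80% and 0.817%. The labels call the replicates biological. Figures were drawn with matplotlib 3.10.9.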

Additional observations from a re-analysis of the deposited data

How the results depend on the processing

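Of 83 alternatives other than leaving out 1 library, 74 kept the direction and side of the threshold and 9 reversed. The number of V segments called by limma was 0 in every setting, with 0 or 1 at an unadjusted p below 0.05, except 40 (22.5%, beside 10.7% of all genes) without Tumor replicate 1 and 80 (44.9%, beside 8.70% of all genes) without the 2 libraries picked for their low V TPM. With the inverse Simpson number, the difference in evenness, Tumor minus WT, was -0.019 for heavy and -0.089 for kappa segments, and over V families it was -0.013 for heavy. Without the 2 poor libraries, chosen after seeing the data, it was -0.055 for heavy and -0.082 for kappa, the summed log2 TPM differed by 1.16 (heavy) and 1.05 (kappa), and Igkv1-117 by 0.58. With a pseudocount of 0.1, the summed lambda difference was -0.035, and the cause was not tested.

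Leaving out each library in turn gave ranges of -0.136 to 0.140 for heavy evenness, -0.141 to 0.131 for kappa evenness, -1.01 to 2.95 percentage points for the lambda share, and on the log2 scale -1.97 to 2.30 for summed heavy, -1.83 to 2.47 for summed kappa and -1.36 to 3.10 for summed lambda V TPM. For single segments the ranges were 0.98 to 1.22 for Ighv1-84, 0.73 to 2.83 for Igkv10-95, -3.03 to -0.40 for Ighv6-3 and -2.69 to 0.66 for Igkv1-117. The count called by limma was 0 in each case. Evenness and the lambda share changed sign without WT replicate 3 or Tumor replicate 2, the summed heavy difference without WT replicate 2 or Tumor replicate 1, the summed kappa difference without replicate 1 or 2 of WT or 1 of Tumor, and the summed lambda difference without replicate 3 of WT or 2 or 3 of Tumor.

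With the replicate number as a block, limma called 0 members, and heavy evenness differed by 0.026, kappa by 0.022 and the lambda share by 0.93 percentage points, as without it. Over genes, the deviations of same-numbered libraries from their group means had correlations of -0.758, 0.205 and -0.843. Those of the 2 poor libraries, WT replicate 3 and Tumor replicate 1, had a correlation of 0.853. Because the poor libraries carry different numbers, these values cannot decide whether the numbers pair the samples. Evenness over the segments at 1 TPM or more in a library gave no value for heavy segments, as Tumor replicate 1 had 1. A count test was not run because the table holds TPM. Precision in Tumor replicate 1 is limited by about 18 heavy, 39 kappa and 1 lambda fragments.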
